A study of Homo sapiens with 4 samples.

Results

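Genes of the nuclear pore and of nuclear transport were examined in U251 cells, an established human glioblastoma (GBM) cell line, after knockdown of PRMT3, an enzyme that methylates arginines in proteins. Members were chosen by gene symbol, with earlier results of these data known. They are the nucleoporins, the importins, transportins and exportins, the core genes of the Ran cycle, and the mRNA export receptor pair NXF1 and NXT1. The table of 15575 genes held 62 of them, and all 62 were placed by their known role in 11 classes. The experiment had 4 RNA-seq libraries, 2 from Ctrl cells that received a lentiviral control shRNA and 2 from PRMT3-KD cells that received a lentiviral PRMT3 shRNA, taken 72 h after transduction. All 4 shared the cell line and a lentiviral delivery. The titles of the Ctrl libraries carry the word pGreen and those of the PRMT3-KD libraries do not, the labels do not explain it, and a difference in vector cannot be told apart from the knockdown. The shRNA sequence used for these libraries is not given in the sources used here. Nothing in the sources says whether the libraries of a group came from separate cultures, so the p-values below measure the spread between these libraries, which may be technical.

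The nuclear pore is a channel through the nuclear envelope, built from many copies of proteins called nucleoporins that form stacked rings, a membrane anchor, filaments on the cytoplasmic side and a basket on the nuclear side. Importins and exportins carry proteins and RNAs through it, and importin alpha is the adaptor that recognises the classical nuclear localisation signal and hands its cargo to importin beta. Direction comes from the small GTPase Ran, which is loaded with GTP by RCC1 on chromatin and discharged by RANGAP1 at the cytoplasmic face. Most mRNA leaves through a separate receptor, NXF1 with its partner NXT1. Many of these genes are highly expressed in dividing cells, which must build new pores and reassemble the envelope at each division.

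Total counts lay between 24804250 and 29756313 per library. PRMT3 had 535 counts in each Ctrl library and 77 and 45 after knockdown (log2 fold change -3.08, SE 0.314, Benjamini-Hochberg adjusted p = 0.0177 by the quasi-likelihood test of edgeR). Without Ctrl 1 its adjusted p was 0.0764 and without Ctrl 2 it was 0.0604. The Ctrl libraries were close to each other, with a biological coefficient of variation of 0.0105, whereas that of the PRMT3-KD libraries was 0.21. In a list of 18 proliferation genes the median difference from the Ctrl mean was -0.63 (log2) in PRMT3-KD 1 and -1.08 in PRMT3-KD 2, and 18 of 18 were lower in PRMT3-KD 2 than in PRMT3-KD 1. Of 9 glial and glioma markers, 8 had at least 1 CPM (a gene's reads scaled to a common library total with TMM factors) in the Ctrl libraries and OLIG2 did not. Their summed level was 8589 to 8608 CPM in Ctrl and 7478 to 7925 CPM in PRMT3-KD, most of it VIM and CD44. SOX9 fell past the threshold (log2 fold change -0.65, adjusted p = 0.0215), while GFAP had 13.1 and 14.3 CPM in Ctrl against 1.26 and 5.39 CPM (adjusted p = 0.0958) and FABP7 34.7 and 33.5 against 14.7 and 23.9 CPM (adjusted p = 0.0882). The part of these markers in the members' values was not tested. Markers of neurons (2 of 4), microglia and leukocytes (1 of 4) and endothelium (2 of 4) were present at summed Ctrl levels of 13.97 to 14.51, 5.45 to 5.49 and 7.38 to 7.399 CPM. Their PRMT3-KD ranges were 16.76 to 19.29, 2.677 to 3.696 and 6.258 to 27.88 CPM, with RBFOX3, PTPRC and PECAM1 under 1 CPM in Ctrl or not listed.

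Most pore and transport genes were lower in the PRMT3-KD libraries, by small amounts. Of 60 tested members, 45 (75.0%) had a log2 fold change under 0, against 49.5% of all 13172 tested genes, and the median was -0.28 against 0.0055. Past the threshold used for the whole table, which asks for over 1.5-fold and for an adjusted p below 0.05, were 3 lower members, NUP214, NUP210 and IPO9, and 1 higher member, KPNA5. These are 3 and 1 of 60 members, where 5.97% of all tested genes were called lower and 4.97% higher, so large changes were no more frequent than in the table as a whole. With the adjusted p alone, 14 members were lower (23.3%, against 8.91% of all tested genes) and 4 were higher (6.67%, against 8.39%). Scaled by library totals only, 6 of these 18 (NUP58, KPNA1, KPNB1, IPO5, NUP153 and NUP85) lost the call, with adjusted p between 0.0501 and 0.0834. Restricted to the 9459 tested genes that average 10 CPM or more, the range in which all 60 tested members lie, 1042 were lower and 957 higher by this rule. Both PRMT3-KD values lay below both Ctrl values in 39 members (65.0%, background 33.8%) and above them in 9 of 60 (background 33.3%). The other 2 members, KPNA7 and NUP62CL, had between 2 and 7 counts in a library and were not tested. In bulk RNA, fewer cells of a type and less RNA per cell cannot be told apart.

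**Figure D1:**
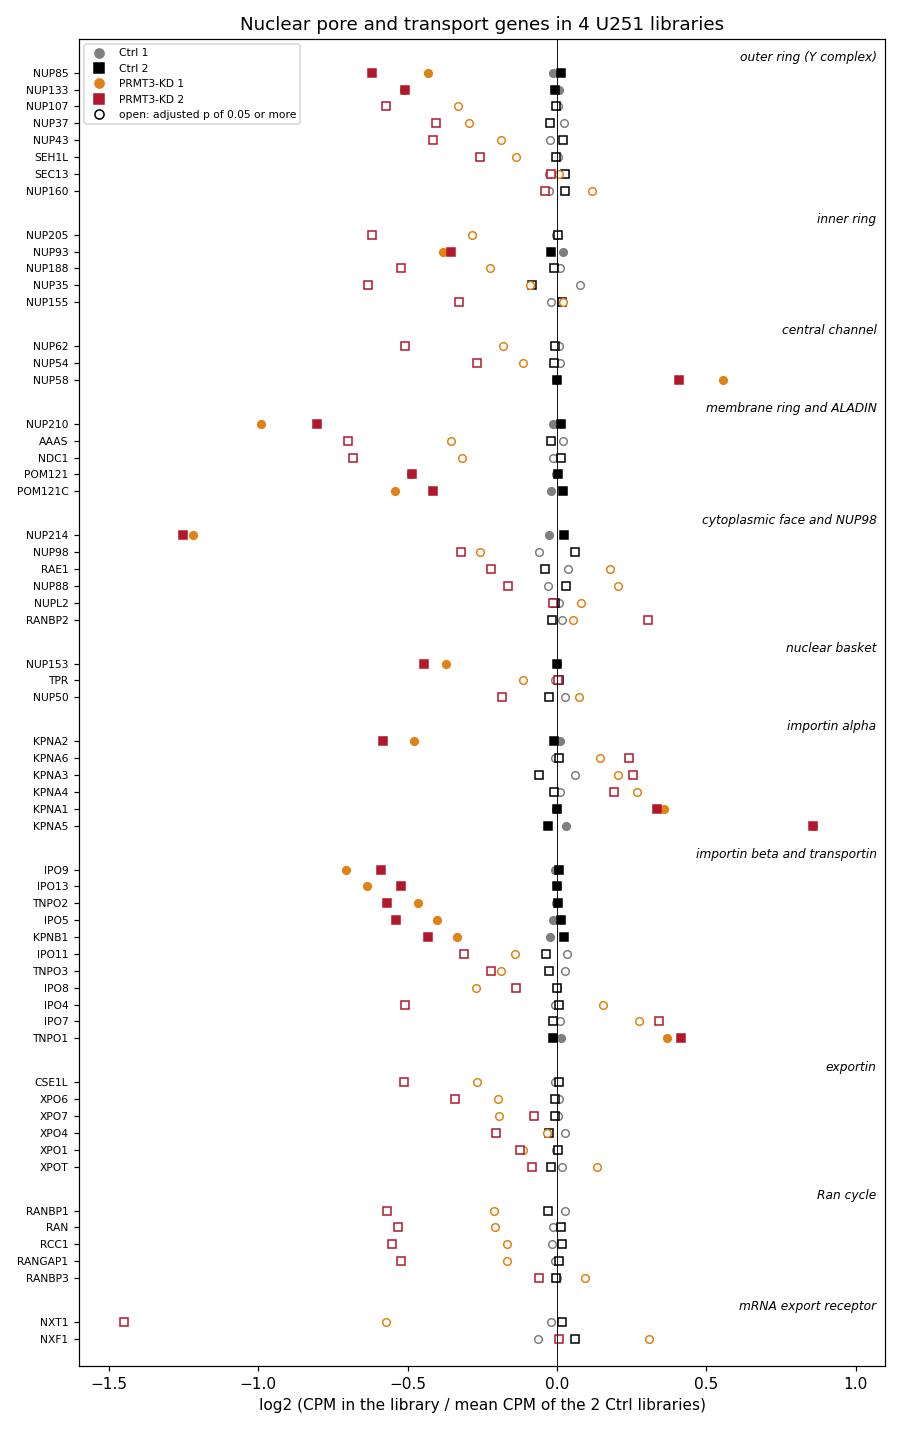
Difference of each library from the mean of the Ctrl libraries (x axis, log2 of the CPM ratio) for the 60 tested members (y axis, grouped by class). Grey circles and black squares are Ctrl 1 and Ctrl 2, orange circles and red squares are PRMT3-KD 1 and PRMT3-KD 2, and filled symbols mark an adjusted p under 0.05 by edgeR. The Ctrl symbols sit near 0 while 45 members have a fold change under 0, and NUP214 and KPNA5 stand apart on either side.

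These calls rest on the close agreement of the Ctrl libraries. Without Ctrl 1 or without Ctrl 2, edgeR called 0 genes of the whole table, and the smallest adjusted p of a member was 0.108 and 0.0868, respectively. With all 4 libraries, 28 members were lower and 7 higher at an unadjusted p under 0.05 by edgeR. Of all 13172 tested genes, 2431 were lower and 2519 higher by this rule. The median log2 fold change of the members was -0.35 without PRMT3-KD 1 and -0.19 without PRMT3-KD 2. With any library left out, NUP214 lay between -1.26 and -1.21 and NUP210 between -0.996 and -0.801. IPO9 then lay between -0.71 and -0.59, and KPNA5 between 0.83 and 0.89. DESeq2 called 19 members lower and 4 higher by adjusted p, against 1426 and 1362 of all 13172 tested genes. For limma-voom with group weights these were 25 and 5 members, against 1398 and 1466 of all tested genes. With 2 libraries a group, the smallest two-sided p of an exact permutation test is 0.333, so single genes have no test outside the fit across all genes.

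Levels per length differed widely between members in Ctrl cells. Expressed as CPM per kb of annotated exon, RAN was the most abundant member at 83.3, followed by the importin beta gene KPNB1 at 56.8, the importin IPO7 at 54.1, KPNA2 at 52.2 and the exportin CSE1L at 46.9. The soluble carriers and Ran thus headed the order, and the most abundant nucleoporins were SEC13, which also serves the COPII coat of secretory vesicles, at 38.9 and NUP62 at 31.9. Lowest among tested members were KPNA5 at 2.26 and NUP214 at 3.10. The length is that of all annotated exons of a gene together, which lowers the value of genes with many transcript forms. NUP214 has 24733 such bases and RAN 4667.

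**Figure D2:**
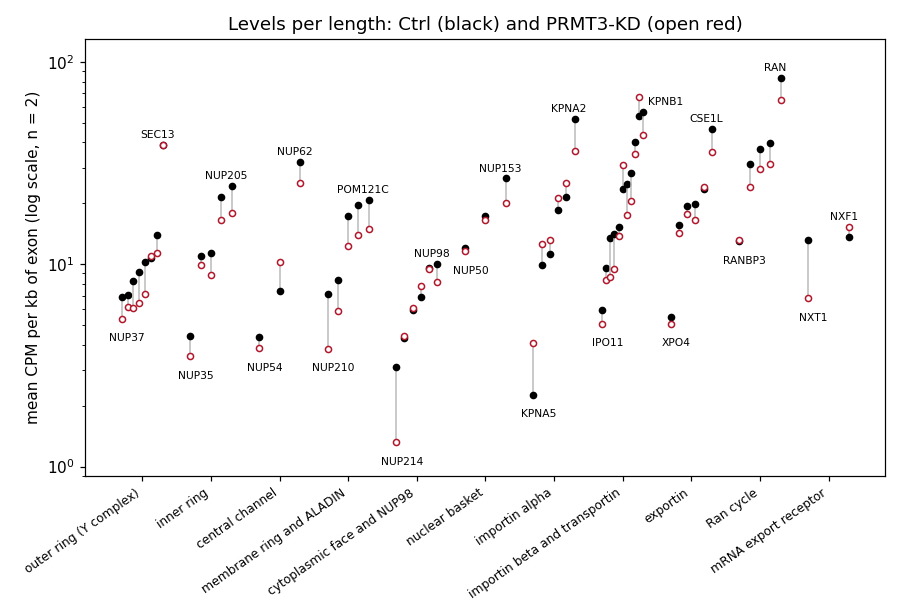
Mean level per length (y axis, CPM per kb of exon, log scale, 2 libraries per group) of the 60 tested members in the 11 classes (x axis), with Ctrl as black points and PRMT3-KD as open red points joined by a line. The highest and lowest member of each class by its Ctrl level is named, from RAN at 83.3 to KPNA5 at 2.26 CPM per kb in Ctrl.

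NUP214, a filament nucleoporin of the cytoplasmic face that forms a complex with NUP88 and binds the exportin XPO1, fell most among the members. It is annotated at chr9:134000960-134110050 on the plus strand of GRCh37. It had 75.3 and 78.0 CPM in Ctrl and 32.9 and 32.2 CPM in PRMT3-KD (log2 fold change -1.24, SE 0.0759, adjusted p = 0.0140 by edgeR). The groups were far apart and the PRMT3-KD libraries differed by less than the Ctrl libraries. Other genes of this face did not follow it. NUP88, its partner, had 50.7 and 52.9 CPM in Ctrl and 59.7 and 46.3 CPM in PRMT3-KD, so that its groups overlapped (log2 fold change 0.03, adjusted p = 0.895). NUPL2 (0.03, adjusted p = 0.823) and RAE1, an mRNA export factor that binds NUP98 (-0.01, adjusted p = 0.975), also lay near 0. RANBP2, the large filament protein that holds RANGAP1 at the pore, had a log2 fold change of 0.18 (adjusted p = 0.283). Its values were 188 and 183 CPM in Ctrl and 192 and 229 CPM in PRMT3-KD. NUP98, whose gene encodes both NUP98 and the Y-complex protein NUP96, was lower in both PRMT3-KD libraries (124 and 135 CPM against 109 and 104) with an adjusted p of 0.0753. The class of 6 had a median of 0.01. NUP214 shares exon bases with 3 lncRNAs, NUP88 with RABEP1, and RANBP2 has near-identical RGPD copies. Because the sources used here do not say whether counting used strand, these values are less certain.

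NUP210, a glycoprotein that spans the membrane around the pore, fell next most among nucleoporins. It is annotated at chr3:13357735-13461822 on the minus strand of GRCh37. Its Ctrl libraries had 93.8 and 95.7 CPM and its PRMT3-KD libraries 47.6 and 54.3 CPM (log2 fold change -0.89, SE 0.0945, adjusted p = 0.0182 by edgeR). All 5 members of the membrane ring and ALADIN class had both PRMT3-KD values below both Ctrl values (background 33.8%), and the class median of -0.49 was the lowest of the classes with over 2 tested members. POM121 had 170 and 171 CPM in Ctrl and 122 CPM in each PRMT3-KD library (log2 fold change -0.49, adjusted p = 0.0221), and POM121C had a log2 fold change of -0.48 (adjusted p = 0.0306). POM121 and POM121C are near-identical copies of one membrane nucleoporin, so reads may be split between them and their values are not independent. NDC1, another transmembrane nucleoporin (-0.49, adjusted p = 0.0797), and AAAS, which encodes ALADIN (-0.52, adjusted p = 0.0722), had values of about the same size. By edgeR they did not pass, and both were lower in PRMT3-KD 2 (57.8 and 24.4 CPM) than in PRMT3-KD 1 (74.4 and 31.0 CPM). By adjusted p, DESeq2 and limma-voom with group weights each called all 5 genes of the class lower. Of all 13172 tested genes they called 1426 and 1398 lower.

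Of the 13 genes of the scaffold rings, 3 passed the adjusted p as lower by edgeR (8.91% of all tested genes did). The others lay between -0.45 and 0.04. In the outer ring, or Y complex, NUP133 (Ctrl mean 55.8 ± 0.353 CPM, PRMT3-KD mean 39.2 ± 0.112 CPM, SD, n = 2) fell by 0.51 on the log2 scale and NUP85 by 0.52 (adjusted p = 0.0243 and 0.0367 by edgeR). NUP107, the subunit at the core of the complex, had 67.1 and 66.7 CPM in Ctrl and 53.2 and 45.0 CPM in PRMT3-KD (log2 fold change -0.45, adjusted p = 0.0572). NUP37, NUP43 and SEH1L lay between -0.35 and -0.20, also short of the threshold. The exceptions were NUP160 (0.04, adjusted p = 0.767) and SEC13 (-0.01, adjusted p = 0.955), whose groups overlapped. In the inner ring 5 of 5 genes were below 0. NUP93, the linker of this ring, had 129 and 125 CPM in Ctrl and 97.5 and 99.3 CPM in PRMT3-KD and fell by 0.37 (adjusted p = 0.0362). The large scaffold genes NUP205 (-0.44, adjusted p = 0.0829) and NUP188 (-0.37, adjusted p = 0.102) did not pass by edgeR, and neither did NUP35 (-0.34) or NUP155 (-0.14). These 4 inner ring genes were each lower in PRMT3-KD 2 than in PRMT3-KD 1, as NUP205 shows with 122 and 153 CPM. NUP107 and NUP205 passed the adjusted p in DESeq2 and in limma-voom with group weights, and NUP188 in limma-voom alone.

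The 3 genes of the central channel trimer went different ways. NUP58 rose from 98.6 and 98.9 CPM in Ctrl to 145 and 131 CPM in PRMT3-KD (log2 fold change 0.48, SE 0.0832, adjusted p = 0.0318 by edgeR, 0.0646 with library totals as the scaling). It was the 1 nucleoporin of 30 tested that passed the adjusted p as higher. NUP62, its partner with phenylalanine-glycine repeats, had 193 and 191 CPM in Ctrl and 170 and 135 CPM in PRMT3-KD (-0.34, adjusted p = 0.137), and NUP54 had a log2 fold change of -0.19 (adjusted p = 0.197). NUP58 made up 16.8% and 17.0% of the RNA of the 3 genes in Ctrl and 25.2% and 27.3% in PRMT3-KD. These shares are per length of all annotated exons and depend on that choice. In the nuclear basket, NUP153, which anchors the basket to the pore, fell from 162 CPM in each Ctrl library to 126 and 119 CPM (-0.41, adjusted p = 0.0321). TPR, the long coiled-coil protein of the basket (-0.05, adjusted p = 0.649), and NUP50, a cofactor of importin alpha (-0.05, adjusted p = 0.782), had overlapping groups. Of the 30 tested nucleoporins, 8 passed the adjusted p by edgeR as lower and 1 as higher (background 8.91% and 8.39%), with a median of -0.34.

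The importin alpha genes were the class in which most members were higher. Of 6 tested genes, 5 lay above both Ctrl values in both PRMT3-KD libraries (background 33.3%). Of these, 2 passed the adjusted p (background 8.39%), and the class median was 0.23, while KPNA2 fell. KPNA5, annotated at chr6:117002350-117063030 on the plus strand of GRCh37, had 26.8 and 25.7 CPM in Ctrl and 47.5 and 47.6 CPM in PRMT3-KD (log2 fold change 0.86, SE 0.0818, adjusted p = 0.0170 by edgeR). It rose most among the members. KPNA1 rose from 84.4 and 84.6 CPM to 108.4 and 106.5 CPM (0.35, SE 0.0680, adjusted p = 0.0399, and 0.0834 with library totals as the scaling). KPNA3 (0.23, adjusted p = 0.117), KPNA4 (0.23, adjusted p = 0.0933) and KPNA6 (0.19, adjusted p = 0.137) had smaller differences that did not pass. KPNA2, the member of the family known for its high level in proliferating and tumour cells, had 387 and 382 CPM in Ctrl and 276 and 256 CPM in PRMT3-KD (-0.53, SE 0.0747, adjusted p = 0.0231). KPNA2 lies at chr17:66031752-66043480 on the plus strand of GRCh37, and the annotation lists 3 pseudogenes named after it.

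**Figure D3:**
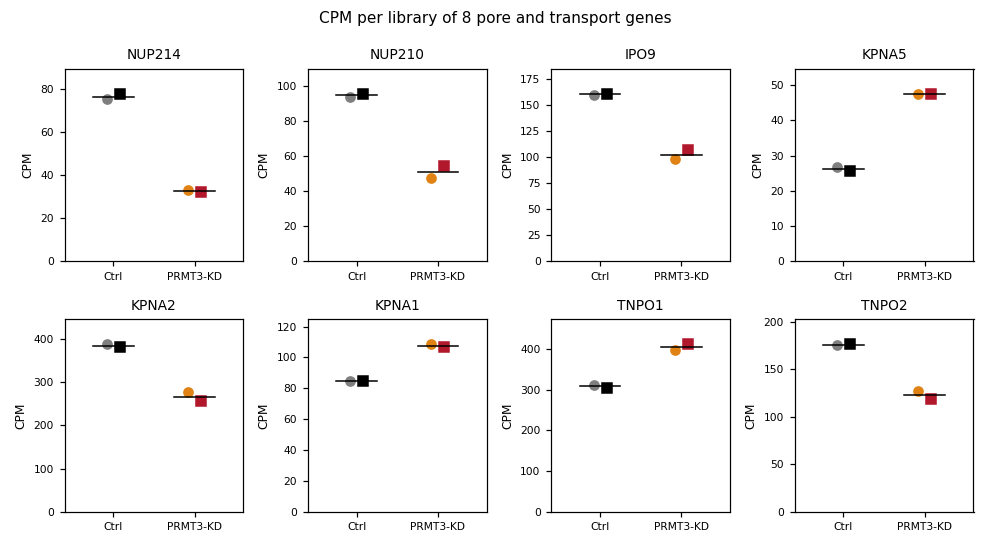
CPM (y axis, from 0) in the Ctrl and PRMT3-KD libraries (x axis) for 8 members, with circles for replicate 1, squares for replicate 2 and a line at the mean of 2 libraries. The groups are separate in each panel, with NUP214 from 75.3 and 78.0 to 32.9 and 32.2 CPM and KPNA5 from 26.8 and 25.7 to 47.5 and 47.6 CPM.

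Per length of all annotated exons, the opposite differences changed the make-up of the importin alpha pool more than its size. The sum over the 6 genes was 117.0 and 114.5 CPM per kb in Ctrl and 113.2 and 111.9 CPM per kb in PRMT3-KD. KPNA2 made up 44.9% and 45.3% of this sum in Ctrl and 33.1% and 31.1% in PRMT3-KD. KPNA5 went from 1.97% and 1.93% to 3.62% and 3.67%, and KPNA1 from 8.49% and 8.69% to 11.3% and 11.2%. KPNA2 stayed the most abundant of the 6 per length in every library. The sum and the shares depend on these lengths, which are 7365 bases for KPNA2 and 11608 for KPNA5. In their canonical transcripts the 3′ UTRs have 258 and 9544 bases. Shares by transcript length were not taken, so the size of the pool is uncertain. These shares are of RNA, and no protein was measured here.

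**Figure D4:**
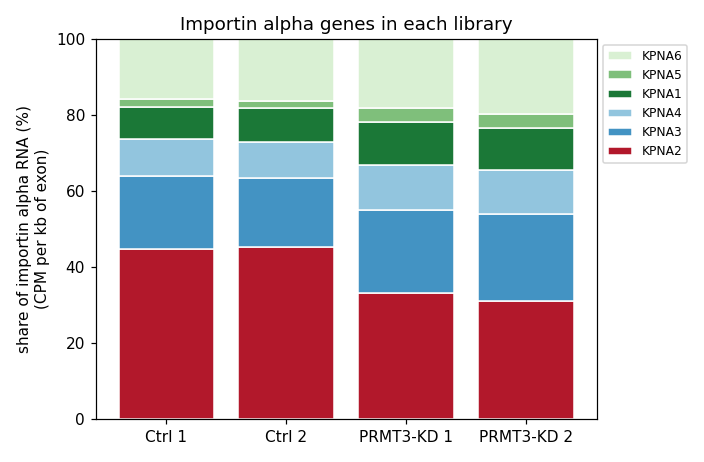
Share of each importin alpha gene in the summed importin alpha RNA (y axis, %, from CPM per kb of exon) in each of the 4 libraries (x axis). The KPNA2 segment at the bottom shrinks from 44.9% and 45.3% in Ctrl to 33.1% and 31.1% in PRMT3-KD.

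Among the 11 importin beta and transportin genes, 5 were lower and 1 higher by adjusted p in edgeR (background 8.91% and 8.39%), and 5 did not pass. IPO9, a carrier of histones H2A and H2B, was the 1 member of this class past the fold threshold as well. It lies at chr1:201798277-201853419 on the plus strand of GRCh37. Its Ctrl libraries had 160 and 161 CPM and its PRMT3-KD libraries 98.3 and 107 CPM (log2 fold change -0.65, SE 0.0772, adjusted p = 0.0198 by edgeR). IPO13, which works as an importer and an exporter, fell by 0.58 (adjusted p = 0.0226), just short of 1.5-fold. IPO5, an importer of ribosomal proteins and histones, fell from 272 and 277 CPM to 208 and 189 CPM (-0.47, adjusted p = 0.0319). KPNB1, the partner of importin alpha, had 576 and 594 CPM in Ctrl and 464 and 434 CPM in PRMT3-KD (-0.38, adjusted p = 0.0393).

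The 2 close transportin paralogs TNPO1 and TNPO2, which import RNA-binding proteins such as hnRNP A1, went opposite ways. TNPO1 rose from 311 and 305 CPM to 398 and 411 CPM (0.39, SE 0.0680, adjusted p = 0.0319 by edgeR), whereas TNPO2 fell from 175 and 176 CPM to 127 and 118 CPM (-0.52, SE 0.0748, adjusted p = 0.0240). In neither gene did the groups overlap. TNPO3, the carrier of serine- and arginine-rich splicing factors, had a log2 fold change of -0.20 (adjusted p = 0.108). IPO7 was higher in both PRMT3-KD libraries (394 and 387 CPM in Ctrl against 472 and 495) and narrowly missed the adjusted p by edgeR (0.31, adjusted p = 0.0514). It missed in DESeq2 as well (adjusted p = 0.0608) and passed in limma-voom with group weights (adjusted p = 0.0256). IPO11 and IPO8 had log2 fold changes of -0.22 and -0.20, and IPO4 was on opposite sides of the Ctrl values in PRMT3-KD 1 (83.4 CPM) and PRMT3-KD 2 (52.7 CPM). Per length of all annotated exons, the class sum was 286.9 and 286.4 CPM per kb in Ctrl and 263.6 and 256.2 in PRMT3-KD. IPO7 took 19.0% and 18.8% of it in Ctrl and 24.8% and 26.8% in PRMT3-KD.

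No exportin passed the adjusted p in edgeR. DESeq2 also called 0 of 6, and limma-voom with group weights called 1 lower (CSE1L), against 1398 of all 13172 tested genes. At an unadjusted p under 0.05 by edgeR, 2 were lower, against 2431 of all tested genes. XPO1, the main receptor for leucine-rich export signals, had 370 and 371 CPM in Ctrl and 343 and 340 CPM in PRMT3-KD (log2 fold change -0.12, SE 0.0655, adjusted p = 0.265). CSE1L, which returns importin alpha to the cytoplasm, had 177 and 179 CPM in Ctrl and 148 and 125 CPM in PRMT3-KD (-0.38, SE 0.105, adjusted p = 0.0726). XPO6, an exporter of actin, lay at -0.27 (adjusted p = 0.0912), XPO7 and XPO4 at -0.14 and -0.12, and the tRNA exporter XPOT at 0.03. In 5 of the 6 genes both PRMT3-KD values were below both Ctrl values (33.8% of all tested genes were lower in this way).

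None of the 5 Ran cycle genes passed the adjusted p, and 4 of them had groups that did not overlap (33.8% of all tested genes were lower in this way), with lower values in PRMT3-KD 2 than in PRMT3-KD 1. RAN had 385 and 392 CPM in Ctrl and 336 and 269 CPM in PRMT3-KD (log2 fold change -0.36, SE 0.127, adjusted p = 0.118 by edgeR). RCC1, the exchange factor, had 153 and 157 CPM against 138 and 105 (-0.35, adjusted p = 0.164), and RANGAP1, the GTPase activator, had 227 and 229 CPM against 203 and 159 (-0.34, adjusted p = 0.154). RANBP1, a helper of RANGAP1, had a log2 fold change of -0.38 (adjusted p = 0.127). These 4 genes thus had nearly the same fold change, all with groups that do not overlap, and none passed. RANBP3, a cofactor of XPO1, differed from them with a log2 fold change of 0.02 (adjusted p = 0.893). At an unadjusted p under 0.05 by edgeR, 2 genes of the class were lower, against 2431 of all 13172 tested genes. DESeq2 called 0 by adjusted p. With limma-voom and group weights 3 were lower (RAN, RANBP1 and RANGAP1), against 1398 of all tested genes. The class median was -0.17 in PRMT3-KD 1 and -0.53 in PRMT3-KD 2, so the difference between the PRMT3-KD libraries was larger than the difference of PRMT3-KD 1 from Ctrl. RAN made up 40.49% and 40.96% of the class per length in Ctrl and 39.73% and 39.97% in PRMT3-KD. RAN has 9 pseudogenes named after it and RCC1 shares exons with SNHG3, so some of their reads may be assigned to other genes or from them.

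Across all tested members, 44 of 60 (73.3%) were lower in PRMT3-KD 2 than in PRMT3-KD 1, against 53.6% of all tested genes, and their medians were -0.18 and -0.35 against the Ctrl mean. The members took 0.864% and 0.866% of all counts in Ctrl, 0.8001% in PRMT3-KD 1 and 0.696% in PRMT3-KD 2. The proliferation genes had the same order of libraries, with medians of -0.63 and -1.08, and their part in the members' difference was not tested.

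**Figure D5:**
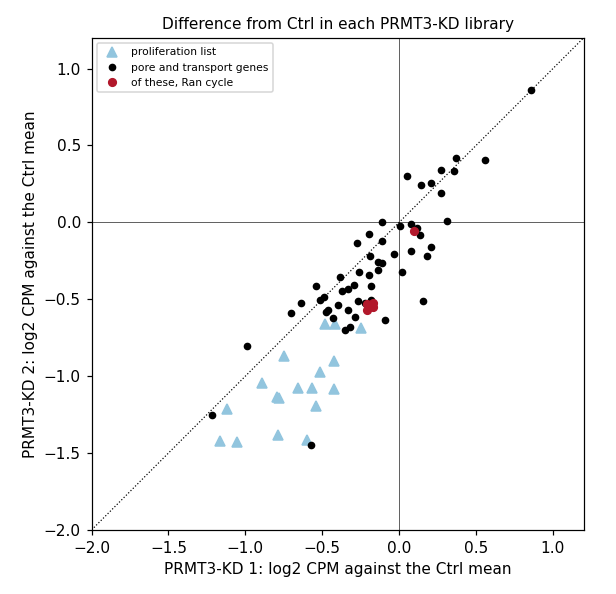
Difference from the Ctrl mean in PRMT3-KD 1 (x axis, log2 CPM) against that in PRMT3-KD 2 (y axis, log2 CPM) for the 60 tested members (black), with the Ran cycle genes in red and the 18 proliferation genes as blue triangles, and a dotted line of equal values. The red points and all blue triangles lie below the dotted line.

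The receptor for bulk mRNA export showed an unequal pair. NXT1 had 13.8 and 14.1 CPM in Ctrl and 9.37 and 5.10 CPM in PRMT3-KD, from 381, 388, 238 and 145 counts. Its log2 fold change of -0.95 was the second lowest of all members, yet the PRMT3-KD libraries differed widely (SE 0.308) and the adjusted p was 0.102 by edgeR. It passed in DESeq2 (adjusted p = 0.0230) and in limma-voom with group weights (adjusted p = 0.0331), and leaving out a library gave a log2 fold change between -1.45 and -0.58. NXF1, the receptor itself, had 80.9 and 88.0 CPM in Ctrl and 105 and 84.9 CPM in PRMT3-KD, with groups that overlapped (0.17, adjusted p = 0.402).

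Among genes that work beside the members, the medians lay nearer 0. Of 20 mRNA export adaptors, 3 were lower past the threshold and 0 higher (background 5.97% and 4.97%), with a median of -0.11. The 3 were THOC6, a subunit of the THO complex (22.4 and 23.7 CPM in Ctrl against 11.3 and 7.96 CPM, log2 fold change -1.26, adjusted p = 0.0264 by edgeR), and the RNA helicases DDX39A (-0.78, adjusted p = 0.0383) and DDX39B (-0.59, adjusted p = 0.0192). No adaptor was called higher at over 1.5-fold by edgeR. At an unadjusted p under 0.05, 2 were higher, against 2519 of all 13172 tested genes. NCBP2, the smaller subunit of the nuclear cap-binding complex, rose by less than 1.5-fold (0.34, adjusted p = 0.0447). A list of 22 further pore and transport genes that the choice by symbol leaves out had 16 tested genes with a median of 0.02. SNUPN, the import adaptor of spliceosomal snRNPs, was the 1 gene of these 16 past the threshold (background 5.97% lower and 4.97% higher). It had 17.8 and 17.9 CPM in Ctrl against 10.5 and 10.3 CPM (-0.78, adjusted p = 0.0212 by edgeR). The largest differences of the list, in RANBP3L (2.94, adjusted p = 0.0767) and RGPD5 (2.31, adjusted p = 0.108), did not pass. RGPD5, one of the RANBP2-like copies, had 81 and 399 counts in Ctrl and 787 and 1567 in PRMT3-KD. By adjusted p alone (background 8.91% lower and 8.39% higher) the SUMO protease gene SENP1 was also lower (-0.41, adjusted p = 0.0491). PHAX, the export adaptor of spliceosomal snRNAs, was higher (0.35, adjusted p = 0.0462). NUTF2, the carrier that brings Ran back to the nucleus, had a log2 fold change of 0.26 (adjusted p = 0.0620).

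The heptamer CAGCTCA in 3′ UTRs had drawn attention in earlier results on these same libraries, so its presence among the members is given here as a description. Of 59 members with a 3′ UTR in their canonical transcript, 8 (13.56%) held it, each with 1 copy, against 17.54% of 12619 tested genes. All 8 had a log2 fold change under 0, with a median of -0.32, as did 36 of the 51 members without it, with a median of -0.20. Over all tested genes the medians were -0.11 with the heptamer and 0.03 without, and genes that held it had longer 3′ UTRs (median 3216 bases against 1136). NUP210, IPO5 and NUP107 are the lowest of the 8, and the 30 bases around each site are given in GRCh37, read on the strand of the gene with the heptamer in capitals, beside the 1 copy in the coding sequence of PRMT3.
NUP210, last of 40 exons, chr3:13358191-13358220, minus strand: cactttcatggCAGCTCAtcaggcgcaggg
IPO5, last of 29 exons, chr13:98674998-98675027, plus strand: attgttctgatCAGCTCAaaaagatttggc
NUP107, last of 28 exons, chr12:69137663-69137692, plus strand: aatgatttttaCAGCTCAtgcagtcctgta
PRMT3, exon 7 of 16, chr11:20419214-20419243, plus strand: ggtgtttatttCAGCTCAtacgggcattat

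NUP214, IPO9 and KPNA2 fell as well and had 0 copies in their 3′ UTRs.

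Promoters of 54 members were matched by symbol in the RefSeq promoter table (GRCh38, 250 bases before to 50 bases after the start), and 5 short motifs were searched on both strands. The CHR element of cell cycle promoters (TTTGAA or TTCGAA) stood in 14 members (25.9%), in 1618 of 10103 tested genes and in 16.4% of all 35116 promoters of that length. Members with it had a median log2 fold change of -0.36 and members without it -0.19. Such medians were not taken over all tested genes, for this or the other motifs. The CCAAT box (CCAAT) stood in 22 members (40.7%, against 43.8% of tested genes and 34.6% of all promoters), with medians of -0.36 with it and -0.20 without. Members with 1 of the other 3 motifs had the higher medians instead, -0.20 with an ETS core and -0.34 without, -0.14 with an E-box and -0.29 without, and -0.06 with an E2F motif (4 members) and -0.34 without. The ETS core (CCGGAAG) stood in 35.2% of members, 21.6% of tested genes and 10.3% of all promoters, the E-box (CACGTG) in 16.7%, 12.4% and 7.3%, and the E2F motif (TTTGGCGC, TTTCCCGC, TTTGCCGC or TTTCGCGC) in 7.4%, 6.6% and 3.3%. NUP210, also past the threshold as lower, had 0 matches of the 5 motifs, and IPO9 had a CCAAT box. No promoter was matched for KPNA5, the member past the threshold as higher, or for KPNA4, KPNB1, NUP43, RANBP1 and XPO7. The other promoter listed for NUP214 held a CCAAT box and no ETS core in its 250 bases before the start. Upstream stretches of KPNA2 and NUP214 are shown as examples that hold matches, with motif matches in capitals.
KPNA2, chr17:68035631-68035660 of GRCh38, plus strand, a CHR match on the opposite strand and a CCAAT box: tgtttTTCAAAtccaCCAATgggcacacag
NUP214, chr9:131125485-131125514 of GRCh38, plus strand, a CCAAT box and an ETS core: gctggCCAATggggagcggcggCCGGAAGa

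A match shows letters only, and no binding was measured here.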

How the data were processed

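RNA-seq counts of 2 Ctrl and 2 PRMT3-KD libraries were used, grouped by the genotype in their labels. The authors deposited whole-number counts per gene, made with TopHat and Cufflinks on hg19. CASAVA and DESeq2 are also named in the submitters' processing notes. Versions, the gene annotation and the strand setting are not given in the sources used here. The table had 15576 entries, 1 of them a duplicate that was removed. Members and lists were chosen with earlier results of these data known. The text names members past the threshold, a set list of members and the highest and lowest per length of each class, and other members were named after their values were seen. One exportin gene (1 entry) is not reported here.

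Counts were filtered with filterByExpr (minimum count 10, minimum total 15), scaled by TMM (factors 0.955 to 1.02) and tested with the quasi-likelihood test of edgeR 4.0.16 in R 4.3.3, with Benjamini-Hochberg adjustment over 13172 genes. CPM values use TMM-scaled library sizes. Standard errors came from the fold change and the F statistic. Lengths, exons and 3′ UTRs (at least 50 bases, canonical transcripts) came from GENCODE 44 lifted to GRCh37, which holds 99.9% of the identifiers, and promoters from RefSeq (GRCh38). Depth of 24804250 to 29756313 counts gave tested members 145 to 16341 counts in a library, and the SE of a log2 fold change was 0.0655 to 0.308. Alternatives were DESeq2 1.42.0, limma-voom (limma 3.58.1), other scalings, filters and thresholds, the replicate number as a block, and each library left out. The test was checked on simulated counts drawn with the same dispersion in all 4 libraries. The real groups differed in spread, which this check does not cover.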

Additional observations from a re-analysis of the deposited data

How the results depend on the processing

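Over 8 other tests, scalings, filters and the block, 476 of 480 member values kept their direction and side of the threshold (fold included), 3 newly passed (NXT1 with DESeq2 and with limma-voom, IPO13 with library totals) and RANBP3 turned to -0.0090 with library totals. The members past the threshold were 3 lower and 1 higher, and 1 and 0 with glmTreat against 1.5-fold, 14 and 4 with no fold threshold, 1 and 0 at 2-fold, and 0 to 9 and 0 to 1 with a library left out. The 2-fold threshold asks for a larger fold from the same fit, and glmTreat tests against a change of 1.5-fold instead of no change. The median of the members lay between -0.35 and -0.19 with a library left out. By adjusted p alone, an alternative chosen after seeing the data, 14 lower became 25 with limma-voom and 0 to 44 with a library left out, and 4 higher became 2 with library totals and 0 to 15. The cause of these differences was not tested.

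The replicate numbers are shared by the groups, and deviations of same-numbered libraries hardly correlated (0.0222). The Ctrl libraries differ so little from each other that this value cannot show whether libraries were made in pairs. With the block 7 members were lower and 1 higher by adjusted p, and 3 and 1 past the threshold. NUP58, KPNA1, TNPO1, KPNB1, IPO5, NUP133, NUP153, NUP85, NUP93 and POM121C lost the adjusted p with it (0.0505 to 0.101). All genes past the threshold were 1441, and 65 with glmTreat, 2278 with no fold threshold, 512 at 2-fold and 0 to 3066 with a library left out. PRMT3 lay between -3.61 and -2.68.

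With a library left out, a group has 1 library and its spread is taken from the other group. Of 240 such member values, 212 kept direction and side, 8 were weaker, 7 stronger and 13 changed sign, in genes whose values ran from -0.056 to 0.089 (RANBP3), -0.51 to 0.15 (IPO4), -0.32 to 0.017 (NUP155), -0.036 to 0.11 (NUP160), -0.18 to 0.071 (NUP50), -0.16 to 0.20 (NUP88), -0.012 to 0.075 (NUPL2), -0.22 to 0.17 (RAE1), -0.034 to 0.019 (SEC13), -0.12 to 0.0067 (TPR) and -0.080 to 0.13 (XPOT).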
